A study of Mus musculus with 6 samples.

Results

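The genes described here are 32 genes of sterol and fatty acid synthesis and their control, picked by symbol from the 54532 genes of a mouse RNA-seq count table. They comprise 7 genes of the mevalonate and isoprenoid steps, 11 genes of the steps from squalene to cholesterol, 5 regulators of the sterol regulatory element binding proteins (SREBPs), 3 genes of sterol transport and efflux, and 6 genes of fatty acid synthesis. They do not include every gene of these pathways. CD4+ T cells were purified from the spleens of young adult male C57BL/6 mice and activated with anti-CD3 and anti-CD28 antibodies under Th1 conditions, that is with IL-2, IL-12 and an antibody against IL-4. In 3 cultures (Th1) the cells received vehicle, 0.1% DMSO, and in 3 cultures (ALX-5407) they received 500 nM ALX-5407, which blocks GlyT1, the glycine transporter encoded by Slc6a9. Both groups shared the strain, the antibodies and the cytokines. The labels give 72 h of culture. The study's sequencing methods give a shorter exposure to ALX-5407, whereas its cell culture methods give harvest for sequencing after 72 h of stimulation. The length of exposure is therefore uncertain. The labels call the cultures biological replicates without saying whether they came from separate mice, so the p-values measure the spread between these cultures, which may be technical in part.

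Cholesterol is built from acetyl-CoA. The mevalonate pathway makes isoprenoid units, which are joined to squalene, closed to lanosterol and trimmed to cholesterol. Fatty acids are built from the same acetyl-CoA by carboxylation, repeated condensation, elongation and desaturation. SREBP-2 and SREBP-1, encoded by Srebf2 and Srebf1, are membrane-bound transcription factors of these pathways. SCAP escorts them to the Golgi for cleavage, and the INSIG proteins hold SCAP back when sterols are plentiful. Liver X receptors (LXRs) respond to oxidized sterols and are known to activate the efflux pumps Abca1 and Abcg1 as well as Srebf1. Activated T cells are known to raise lipid synthesis as they build membrane for division.

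The libraries held between 30801753 and 36727788 counts, and all 32 genes passed the filter on low counts, the least abundant, Fdps, with a mean of 103 counts per library. Of the other genes measured, the T cell markers Cd3d, Cd3e, Cd3g, Trac, Cd4, Cd28 and Lck had a summed level of 2494 to 2621 CPM (counts scaled to library size) in Th1 cultures and 2452 to 2496 CPM in ALX-5407 cultures. Within that sum, Cd4 (-0.46 on the log2 scale), Cd3d (-0.39) and Cd3g (-0.35) were called lower, Cd28 (0.52) was called higher, and the other three were not called. The 5 Th1 genes summed to 1213 to 1394 CPM without and 984 to 1022 CPM with ALX-5407. Of these, Stat4 (-1.16), which carries the IL-12 signal, and Ifng (-0.79), the signature cytokine of the lineage, were lower, its master regulator Tbx21 (0.34) was higher, and Cxcr3 and Il12rb2 were not called. B cell markers (5 genes) summed to 7.60 to 8.84 CPM without and 11.4 to 14.4 CPM with ALX-5407, and 3 of the 5 were called higher. The 4 NK cell markers summed to 1.92 to 3.41 CPM against 4.96 to 5.58 CPM, almost all of it Eomes. The other NK cell markers, Ncr1, Klrb1c and Klra8, had too few counts to be tested. Their means were 0.0425, 0.221 and 0.0315 CPM without and 0.0363, 0.0464 and 0.0189 CPM with ALX-5407. The rise of the NK cell sum is therefore that of Eomes and not of the list. The 6 monocyte and macrophage markers summed to at most 0.780 CPM in any library. The neutrophil sum fell from 69.9 to 75.3 CPM to 24.1 to 31.6 CPM through Ly6g, with S100a8 and S100a9 at 0 in all 6 libraries. The part of these other markers in the results below was not tested. In bulk RNA, fewer cells of a type and less RNA per cell cannot be told apart.

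Most of the 32 genes were higher with ALX-5407. Of the 32, 24 were higher, 4 were lower and 4 did not pass an adjusted p of 0.05 (quasi-likelihood test of edgeR, p-values adjusted by Benjamini-Hochberg across 15938 genes). Over all genes tested, 47.7% were called, 24.5% higher and 23.2% lower. Shares over all genes were not matched for count level, and 30 of the 32 genes had a mean of 500 counts or more. The lower genes were Fdft1, Insig2, Abca1 and Elovl6, which lie in 4 different branches, and those not called were Pmvk, Msmo1, Nsdhl and Ebp. The median log2 fold change was 0.42 over the 32 genes and 0.0053 over all genes tested. The changes were mostly moderate. Only Abcg1 and Fasn were higher and only Abca1 was lower at the study's threshold of an adjusted p under 0.05 with a log2 fold change beyond 1, which 3.36% of all genes passed upwards and 6.68% downwards. The 3 ALX-5407 cultures lay wholly above the 3 Th1 cultures for 26 of the 32 genes, against 28.4% of all genes, and wholly below them for 5, against 27.1% of all genes. Msmo1 was the single member whose groups overlapped.

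**Figure D1:**
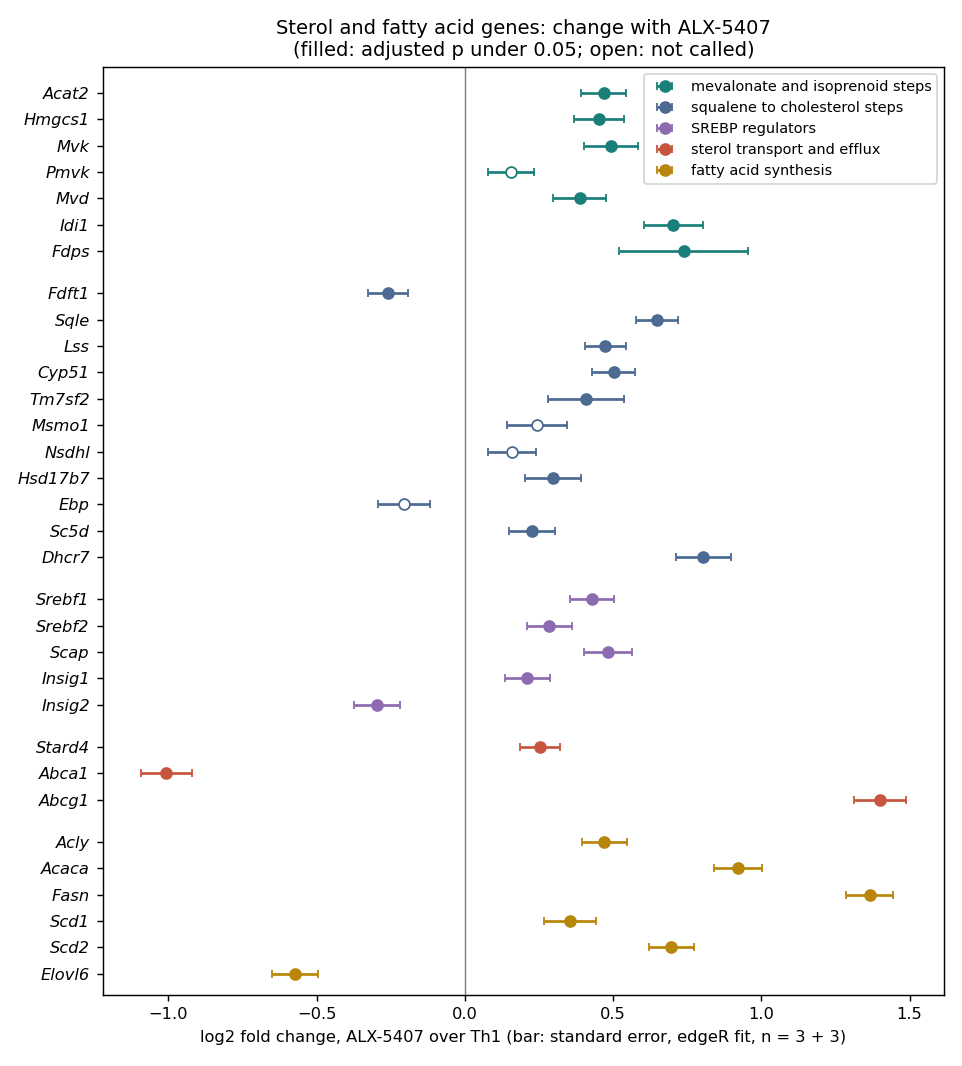
Log2 fold change of each of the 32 genes (horizontal axis, ALX-5407 over Th1, 3 cultures each) with its standard error from the edgeR fit as bars, coloured by group. Filled points passed an adjusted p of 0.05 and open points did not. Abca1, Elovl6, Insig2 and Fdft1 are the filled points left of 0, and Abcg1 (1.40) and Fasn (1.37) lie farthest to the right.

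By group, the median log2 fold change was 0.58 for fatty acid synthesis, 0.47 for the mevalonate and isoprenoid steps, 0.30 for the steps from squalene to cholesterol, 0.29 for the SREBP regulators and 0.25 for transport and efflux. The last is the value of the carrier Stard4 alone. The efflux pumps Abca1 (-1.01) and Abcg1 (1.40) lay on either side of it. The summed level of the 6 fatty acid genes lay between 2094 and 2362 CPM in the Th1 cultures and between 3489 and 3725 CPM in the ALX-5407 cultures. The 7 mevalonate genes summed to 414 to 439 CPM without and 548 to 621 CPM with ALX-5407, and the 11 later sterol genes to 785 to 812 CPM and 965 to 1032 CPM. The summed levels of the groups of cultures did not overlap for any of the 5 gene groups. Of single genes, 28.4% over all genes tested lay wholly higher with ALX-5407. A sum mostly reflects its most abundant genes, such as Scd2 at a mean of 1425 CPM and Stard4 at 193 CPM in Th1 cultures. It does not show a shift of every member, since Fdft1, Insig2, Abca1 and Elovl6 were lower. Differences between the gene groups were not tested.

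Promoter sequences are shown for 6 genes, chosen to set genes that were higher (Hmgcs1, Cyp51, Insig1 and Fasn) beside genes that were lower (Elovl6 and Abca1). Each is a run of 150 bases from the RefSeq promoter (GRCm38.p6) that ends just before the start of the gene in GENCODE or in RefSeq, whichever lies farther upstream, written 5′ to 3′ on the strand of the gene in lower case. Capitals mark letters that match, on either strand, the sterol regulatory element TCACNCCAC, the NF-Y box CCAAT, the GC box GGGCGG or the E-box CACGTG. NF-Y and the GC box factor Sp1 are known partners of the SREBPs at such promoters. The runs are chr13:119690201-119690350 on the + strand for Hmgcs1, chr5:4104747-4104896 on the - strand for Cyp51, chr5:28071213-28071362 on the + strand for Insig1, chr11:120824548-120824697 on the - strand for Fasn, chr3:129532205-129532354 on the + strand for Elovl6 and chr4:53159896-53160045 on the - strand for Abca1.
Hmgcs1: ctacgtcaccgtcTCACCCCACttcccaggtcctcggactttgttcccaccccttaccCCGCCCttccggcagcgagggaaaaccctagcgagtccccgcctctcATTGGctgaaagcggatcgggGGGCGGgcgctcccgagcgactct
Cyp51: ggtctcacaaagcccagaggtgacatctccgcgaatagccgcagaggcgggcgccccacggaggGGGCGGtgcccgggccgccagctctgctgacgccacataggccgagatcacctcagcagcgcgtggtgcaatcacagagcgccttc
Insig1: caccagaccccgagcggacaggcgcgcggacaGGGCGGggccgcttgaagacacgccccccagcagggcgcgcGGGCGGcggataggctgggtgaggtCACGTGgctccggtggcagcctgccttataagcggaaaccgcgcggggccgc
Fasn: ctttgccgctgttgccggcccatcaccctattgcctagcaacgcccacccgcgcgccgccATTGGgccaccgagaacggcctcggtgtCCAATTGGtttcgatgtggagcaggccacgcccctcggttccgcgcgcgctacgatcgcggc
Elovl6: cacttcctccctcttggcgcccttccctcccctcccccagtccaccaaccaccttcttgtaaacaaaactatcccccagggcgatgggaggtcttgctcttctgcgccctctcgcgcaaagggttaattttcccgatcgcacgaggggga
Abca1: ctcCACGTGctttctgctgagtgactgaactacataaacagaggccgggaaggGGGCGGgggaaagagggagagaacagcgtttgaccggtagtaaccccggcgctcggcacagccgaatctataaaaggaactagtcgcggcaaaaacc

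The Hmgcs1 run holds the sterol regulatory element, 1 NF-Y box and 2 GC boxes, and the Fasn run holds 3 NF-Y boxes, of which a pair overlaps head to head. For Cyp51 and Insig1 the RefSeq start lies downstream of the run's end. The NF-Y boxes of Cyp51 and Insig1 that are counted next fall outside the runs shown. The Elovl6 run holds none of these letters, and the Abca1 run holds 1 E-box and 1 GC box. RefSeq promoters of 300 bases, from 250 before the start to 50 after it, were found for 25 of the 32 genes. The sterol regulatory element was found in 1 of these 25 genes (4.0%), against 1.43% of 10405 tested genes with such a promoter. The NF-Y box was found in 20 of 25 (80.0%) against 42.7%, the GC box in 21 of 25 (84.0%) against 67.1%, and the E-box in 6 of 25 (24.0%) against 11.5%. The NF-Y box was present in Insig2, which was lower. It was absent from the higher genes Acat2, Scap and Acaca and from the lower genes Elovl6 and Abca1. A link between motifs and direction was not tested. Genes with several promoters were counted once, and the LXR element, AGGTCA repeated after a spacer of 4 bases, matched none of the 25 and none of the 10405. A match is a description of letters in this window and not a binding site, and a missing match says nothing about a factor that may bind elsewhere.

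All 7 genes of the mevalonate and isoprenoid steps had positive log2 fold changes, and 6 of the 7 passed the test. Of all genes tested, 24.5% were called higher. The clearest was Idi1 (chr13:8885501-8892451), the isomerase that interconverts the 2 isoprenoid building blocks. Its level was 41.9, 42.9 and 52.7 CPM in the Th1 cultures and 68.9, 70.8 and 84.0 CPM in the ALX-5407 cultures. Every ALX-5407 culture was above every Th1 culture, and the means were 45.8 ± 5.97 CPM (SD, n = 3) and 74.6 ± 8.23 CPM (SD, n = 3) (log2 fold change 0.70, standard error 0.099, adjusted p = 2.26e-05). Acat2, the cytosolic thiolase that joins acetyl-CoA at the first step, was at 67.8, 69.0 and 75.1 CPM without and 91.1, 99.0 and 103 CPM with ALX-5407 (log2 fold change 0.47, standard error 0.076, adjusted p = 9.04e-05). Hmgcs1 (chr13:119690379-119708260), the HMG-CoA synthase whose promoter holds the sterol regulatory element above, was at 174, 185 and 190.3 CPM without and 229, 238 and 285 CPM with ALX-5407 (0.45, standard error 0.084, adjusted p = 0.000327). Mvk, mevalonate kinase, rose from 19.6 ± 1.27 to 27.6 ± 0.318 CPM (SD, n = 3 each), and its 3 ALX-5407 cultures lay within 27.4 to 28.0 CPM (0.49, adjusted p = 0.000309).

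The next enzymes of the branch moved less evenly. Mvd, which decarboxylates the mevalonate diphosphate, rose by 0.39 (standard error 0.089, adjusted p = 0.00183). Pmvk, the kinase between Mvk and Mvd, was at 40.2 to 41.2 CPM without and 43.8 to 47.3 CPM with ALX-5407, with no overlap. Its log2 fold change of 0.16 did not pass the test (approximate 95% interval 0.01 to 0.30, adjusted p = 0.106). That interval is narrower than the quasi-likelihood test implies, since the p-value of the test was 0.0582 before adjustment. Fdps, the farnesyl diphosphate synthase at the branch point to sterols, had few counts, 73, 61 and 79 without and 117, 174 and 115 with ALX-5407, and its log2 fold change of 0.74 had a standard error of 0.22 (adjusted p = 0.0104). Its call was lost without Th1 replicate 2 (0.63, adjusted p = 0.0503) and without ALX-5407 replicate 2 (0.56, adjusted p = 0.0708). The low Fdps count is uncertain, because 76.8% of its longest transcript has annotated copies with at least 95% identity. The processed pseudogene Gm3571, which is 98.9% identical over 1062 bases, held 453, 423 and 483 counts without and 778, 834 and 784 with ALX-5407. Fdps summed with its 5 copies rose from 18.7 ± 1.603 to 29.9 ± 0.445 CPM (SD, n = 3 each), with 0.68 as the log2 ratio. Acat2 shares 65.6% of its transcript with Acat3 and Tcp1, both of which were lower (-0.92 and -0.34), so reads of these 3 genes may be split in a way that depends on the counting.

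Of the 11 genes from squalene to cholesterol, 7 were higher, 1 was lower and 3 did not pass the test. Over all genes tested, 24.5% were higher and 23.2% lower. Dhcr7 (chr7:143823145-143848410), the reductase that turns 7-dehydrocholesterol into cholesterol, changed most. It was at 34.6, 34.6 and 27.5 CPM in the Th1 cultures and 54.5, 58.9 and 55.5 CPM in the ALX-5407 cultures. The ALX-5407 values lay close together and far above the Th1 values, and the log2 fold change of 0.80 had a standard error of 0.093 (adjusted p = 3.02e-06). Sqle (chr15:59315077-59331192), the squalene epoxidase that catalyses a rate-limiting oxygenation, was at 81.7, 77.5 and 78.0 CPM without and 118, 122 and 131 CPM with ALX-5407 (0.65, standard error 0.071, adjusted p = 1.9e-06). The groups were again fully apart, and the mean rose 1.57-fold.

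Lss, which closes the ring to lanosterol, and Cyp51, which demethylates lanosterol, stand next in the pathway and both rose. Lss was at 107, 102 and 101 CPM without and 143, 139.8 and 146 CPM with ALX-5407 (0.47, adjusted p = 2.85e-05). Cyp51 rose from 176 ± 8.16 to 249.8 ± 15.5 CPM (SD, n = 3 each; 0.50, adjusted p = 3.21e-05). Tm7sf2 (0.41, adjusted p = 0.0154), Hsd17b7 (0.30, adjusted p = 0.0152) and Sc5d (0.23, adjusted p = 0.0245), enzymes of the reduction and desaturation steps, passed by less. Their calls were lost when 1 culture was left out. For Tm7sf2 this was without Th1 replicate 1 or ALX-5407 replicates 1 or 3 (adjusted p from 0.0504 to 0.0922). For Hsd17b7 it was without Th1 replicate 2 or ALX-5407 replicate 3 (0.0747 and 0.0916). For Sc5d it was without Th1 replicates 1 or 2 or ALX-5407 replicates 2 or 3 (0.0501 to 0.118). The Sc5d call was lost in 6 of the 14 alternatives, of which 4 left out a culture.

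Fdft1, squalene synthase, which commits farnesyl diphosphate to sterols, went the other way. It was at 154, 152 and 147 CPM in the Th1 cultures and 124, 126 and 129 CPM in the ALX-5407 cultures. The groups did not overlap, and the log2 fold change of -0.26 had a standard error of 0.067 (adjusted p = 0.00441). The exons of the abundant gene Ctsb on the opposite strand overlap 18.3% of the exon bases of Fdft1, and Ctsb itself had a log2 fold change of 0.03. The counting is not stated to use strand, so reads in that stretch cannot be assigned. Ebp, the sterol isomerase, was at 44.2, 41.0 and 38.7 CPM without and 38.4, 35.8 and 33.3 CPM with ALX-5407 (-0.21, 95% interval -0.37 to -0.04, adjusted p = 0.0601). Without Th1 replicate 3 it passed the test (-0.27, adjusted p = 0.0177). Ebp passed in 6 of the 14 alternatives, of which 1 left out a culture, so its status depends on other settings as well. The C4 demethylation genes Msmo1 and Nsdhl had log2 fold changes of 0.24 (95% interval 0.04 to 0.44, adjusted p = 0.0582) and 0.16 (-0.0020 to 0.32, adjusted p = 0.125). Msmo1 ranged from 76.8 to 108 CPM within the Th1 cultures and from 101 to 113 CPM within the ALX-5407 cultures. Without the highest Th1 culture, replicate 3, its change passed the test (0.38, adjusted p = 0.000475). Msmo1 passed in 4 of the 14 alternatives, of which 1 left out a culture.

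**Figure D2:**
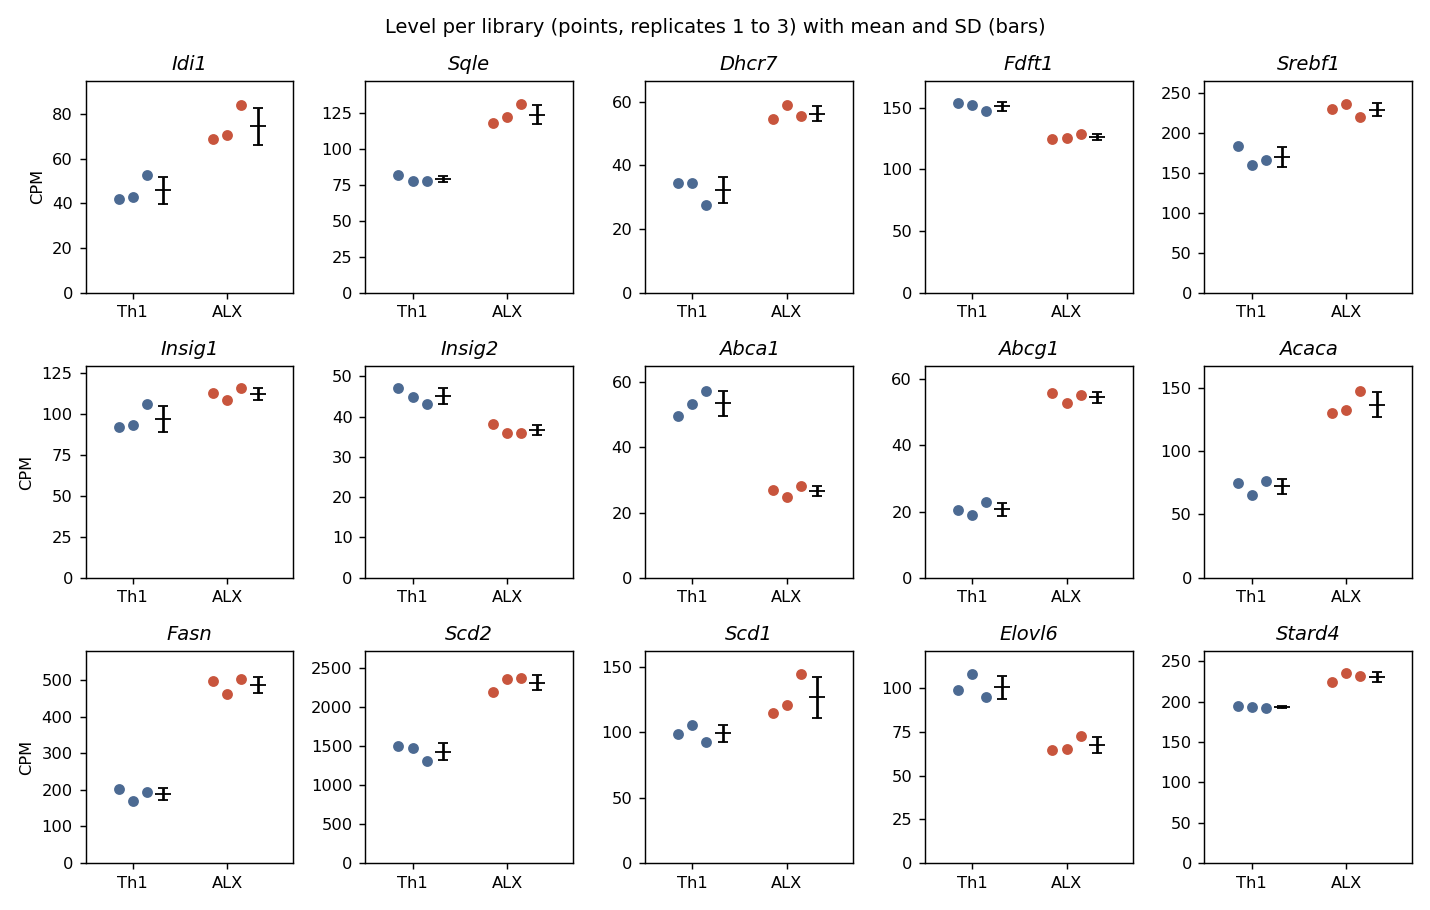
CPM of selected genes in each culture (points), with the mean and SD of each group as bars beside them; the 3 Th1 cultures are on the left and the 3 ALX-5407 cultures on the right of each panel, and each vertical axis starts at 0. Abca1 and Elovl6 lie lower with ALX-5407, and Fasn and Abcg1 rise from 189 to 486 CPM and from 20.7 to 54.6 CPM.

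Among the SREBP regulators, both transcription factor genes and their escort were higher, and the INSIG genes moved in opposite directions. Srebf1 was at 184, 159.7 and 166 CPM in the Th1 cultures and 230.1, 236 and 219.7 CPM in the ALX-5407 cultures (log2 fold change 0.43, standard error 0.074, adjusted p = 0.000164). Srebf2 was at 499, 484 and 417 CPM without and 560.0, 564 and 583 CPM with ALX-5407 (0.29, standard error 0.077, adjusted p = 0.00602). Scap was at 62.9, 51.3 and 58.7 CPM without and 82.0, 81.2 and 78.4 CPM with ALX-5407 (0.48, standard error 0.081, adjusted p = 0.000131). In all 3 genes the ALX-5407 cultures lay above every Th1 culture. Per kilobase of gene length, Srebf2 stood above Srebf1 in both groups, and the ratio of Srebf1 to Srebf2 overlapped between them, with 0.466 ± 0.0437 in Th1 cultures and 0.513 ± 0.0282 in ALX-5407 cultures (SD, n = 3 each).

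Insig2 was at 47.1, 44.8 and 43.2 CPM in the Th1 cultures and 38.2, 35.9 and 35.9 CPM in the ALX-5407 cultures, fully apart and lower (-0.30, standard error 0.079, adjusted p = 0.00536). Insig1, itself a known SREBP target, was at 92.1, 92.9 and 106 CPM without and 113, 109 and 116 CPM with ALX-5407 (0.21, standard error 0.076, adjusted p = 0.0302). Its call depended on the setting. It was lost without any 1 culture other than Th1 replicate 3 (adjusted p from 0.0512 to 0.133), with upper-quartile scaling (adjusted p = 0.101) and with protein-coding genes alone (adjusted p = 0.0787). The ratio of Insig1 to Insig2, per length, was 2.19, 2.33 and 2.76 in the Th1 cultures and 3.31, 3.39 and 3.62 in the ALX-5407 cultures, without overlap.

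The efflux pumps Abca1 and Abcg1 changed in opposite directions and held the lowest and the highest log2 fold change of the 32 genes. Abca1 (chr4:53030787-53159895), which passes cholesterol to lipid-poor apolipoprotein, was at 49.7, 53.4 and 57.4 CPM in the Th1 cultures and 26.9, 24.9 and 28.0 CPM in the ALX-5407 cultures. Its mean fell to 0.497 of the Th1 mean (-1.01, standard error 0.086, adjusted p = 1.26e-07). Abcg1 (chr17:31057698-31115777), which passes cholesterol to mature lipoprotein particles, was at 20.4, 18.8 and 22.8 CPM without and 56.0, 52.8 and 55.2 CPM with ALX-5407. Its mean was 2.64-fold higher (1.40, standard error 0.089, adjusted p = 5.87e-09). With the gene lengths of the count table, the ratio of Abcg1 to Abca1 per length was 1.05, 0.900 and 1.01 in the Th1 cultures and 5.31, 5.39 and 5.01 in the ALX-5407 cultures. That table gives Abcg1 a length of 4066 bases, whereas its merged exons in GENCODE M21 cover 7298 bases. With the GENCODE length, an alternative chosen after seeing the data, the ratio was 0.550 ± 0.0428 without and 2.92 ± 0.111 with ALX-5407 (SD, n = 3 each), so the order of the pumps in Th1 cultures depends on the length used. Abca1 lay close to the fold threshold, and its log2 fold change ranged from -1.07 to -0.96 with 1 culture left out, falling short of the threshold without Th1 replicate 3 or ALX-5407 replicate 2. Stard4, a carrier that moves cholesterol between membranes, was at 194, 193 and 192 CPM without and 224, 235 and 232 CPM with ALX-5407 (0.25, adjusted p = 0.00483).

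Of the 6 fatty acid genes, 5 were higher and 1 was lower, against 24.5% higher and 23.2% lower over all genes tested. Fasn (chr11:120805846-120824547), the multidomain synthase that makes palmitate, was at 203, 169.8 and 194 CPM in the Th1 cultures and 496, 461 and 502 CPM in the ALX-5407 cultures. The lowest ALX-5407 culture stood far above the highest Th1 culture, and the mean was 2.58-fold higher (1.37, standard error 0.079, adjusted p = 2.27e-09). Acaca (chr11:84129672-84401651), acetyl-CoA carboxylase, which makes malonyl-CoA for Fasn, was at 74.5, 65.5 and 76.3 CPM without and 129.98, 132 and 148 CPM with ALX-5407 (0.92, standard error 0.081, adjusted p = 1.61e-07). A copy annotated as Gm5182 is 99.2% identical to Acaca over 6118 bases and was higher as well (0.78), and the log2 ratio of both together was 0.90. Acly, which cuts citrate to give cytosolic acetyl-CoA, rose from 349 ± 31.4 to 484 ± 5.71 CPM (SD, n = 3 each; 0.47, adjusted p = 8.21e-05).

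The desaturases Scd2 and Scd1 put a double bond into saturated acyl chains, and both were higher. Scd2 was at 1502, 1471 and 1304 CPM in the Th1 cultures and 2194, 2362 and 2372 CPM in the ALX-5407 cultures (0.70, standard error 0.075, adjusted p = 1.51e-06). Scd1 was at 99.1, 106 and 92.7 CPM without and 115, 121 and 145 CPM with ALX-5407 (0.35, standard error 0.088, adjusted p = 0.00335). Per length, Scd2 exceeded Scd1 by 12.7 ± 0.606 times in Th1 cultures and 16.3 ± 1.504 times in ALX-5407 cultures (SD, n = 3 each), and 11.4% of the Scd2 transcript matches Scd1 at 95% identity or more. Elovl6 (chr3:129532355-129638495), which lengthens palmitate, was lower, at 99.0, 108 and 94.9 CPM without and 64.6, 65.4 and 72.8 CPM with ALX-5407 (-0.57, standard error 0.078, adjusted p = 1.6e-05). No ALX-5407 culture of Elovl6 reached a Th1 value. The ratio of Fasn to Elovl6 per length was 1.20, 0.925 and 1.20 in the Th1 cultures and 4.51, 4.14 and 4.05 in the ALX-5407 cultures.

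Levels could be set side by side between genes only per gene length, as CPM per kilobase. On that scale Scd2 was the most abundant of the 32 in both groups, at 261 ± 19.5 in Th1 and 424 ± 18.3 in ALX-5407 cultures (SD, n = 3 each). Acly followed at 66.2 and Srebf2 at 65.0 in Th1 cultures, a pair that did not differ beyond its spread there. Cyp51 and Hmgcs1 came next at 39.9 each, and Fdps was the lowest at 0.535. With ALX-5407, Fasn rose from 17.2 to 44.4 and Acaca, which is far less abundant, from 4.22 to 8.003.

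**Figure D3:**
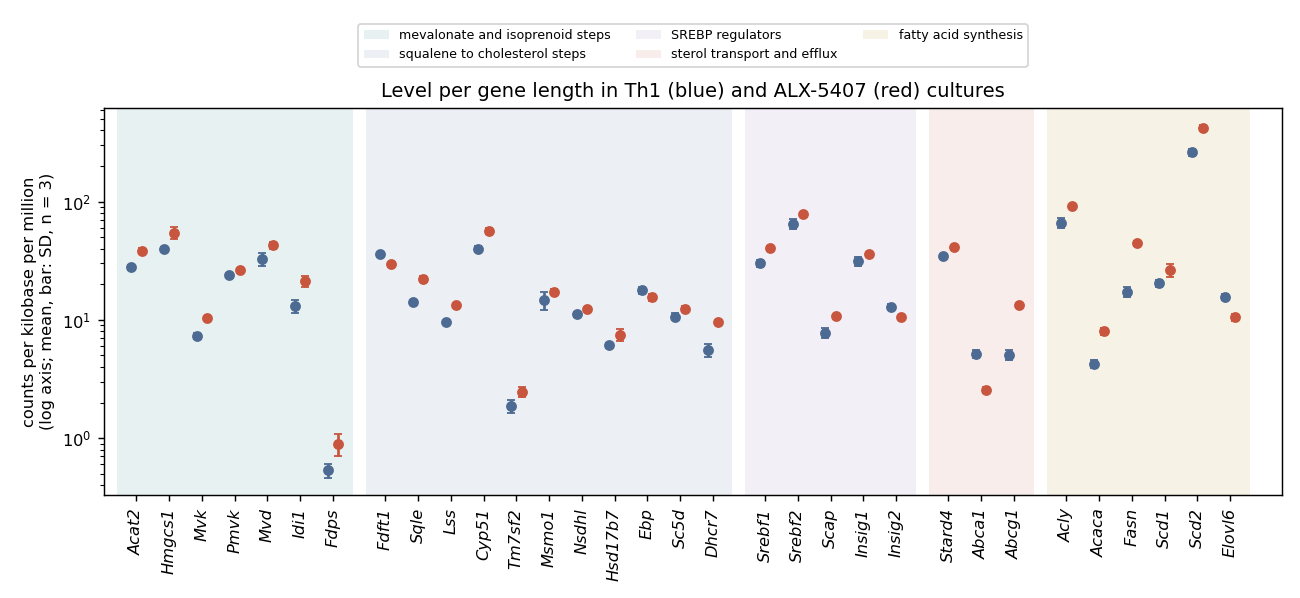
Mean level of each of the 32 genes in CPM per kilobase of gene length (vertical log axis) in Th1 (blue) and ALX-5407 (red) cultures, with the SD over 3 cultures as bars and gene groups shaded. Scd2 lies above all others, Fdps lies lowest, and Abcg1 stands above Abca1 in ALX-5407 cultures. Lengths are those of the count table.

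Other lipid genes around these pathways were followed in 10 lists. Of 126 listed genes 113 were tested, and 46 were higher, 24 lower and 43 not called, with a median log2 fold change of 0.12, against the 24.5% higher and 23.2% lower of all genes given above. Of 6 electron donors, 5 were higher and 1 was lower. They include Cyb5b (0.70, adjusted p = 7.56e-07) and Cyb5r1 (0.67, adjusted p = 3.2e-06), a cytochrome b5 and a cytochrome b5 reductase. Of 7 genes that supply acetyl-CoA or NADPH, 4 were higher and 1 was lower. Idh1 (0.56) and G6pdx (0.34), both sources of NADPH, rose and Pgd fell by 0.25.

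The counts of the next 3 lists are to be set against 24.5% higher and 23.2% lower over all genes, and no direction is read from them. The LXR list had 6 tested genes, of which 2 were higher and 1 was lower. Lpcat3, which remodels membrane phospholipids, rose from 31.6 ± 3.89 to 54.4 ± 3.98 CPM (SD, n = 3 each; 0.78, adjusted p = 5.29e-06). Mylip, a ubiquitin ligase for lipoprotein receptors, rose from 1.21 ± 0.231 to 3.79 ± 1.08 CPM (SD, n = 3 each; 1.64, adjusted p = 7.97e-05), and the receptor gene Nr1h2 fell by 0.28. Of 16 genes of sterol uptake, esterification and trafficking, 6 were higher and 4 lower, with Npc2, a lysosomal cholesterol carrier, lower (-0.78) and Osbpl2 higher (0.81). Of 14 isoprenoid-using genes 7 were higher and 1 was lower, the lower one being Rabggtb (-0.84), which prenylates Rab proteins.

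For the fatty acid lists, the counts are again to be set against 24.5% higher and 23.2% lower over all genes. No direction is read from them. Of 18 genes of fatty acid activation and glycerolipid assembly 7 were higher and 5 lower. Dgat1, the acyltransferase that completes triacylglycerol, fell from 253 ± 14.4 to 63.4 ± 7.53 CPM (SD, n = 3 each; -1.997, adjusted p = 1.16e-10), and Fabp5, a fatty acid binding protein, fell by 1.05 on the log2 scale (adjusted p = 2.06e-08). Agpat3 rose by 0.74. Of 17 genes of elongation, desaturation and their regulation 5 were higher, among them Mid1ip1 (0.65), which activates acetyl-CoA carboxylase, and 5 were lower, among them Hacd2 (-0.55). Of 16 fatty acid oxidation genes 5 were higher and 5 lower, with Cpt2 at 0.58 and Eci1 at -0.66. Of 5 genes of mitochondrial fatty acid synthesis, 3 were higher, with Mcat at 0.43 and Mecr at 0.37, and Ndufab1 was lower (-0.32).

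**Figure D4:**
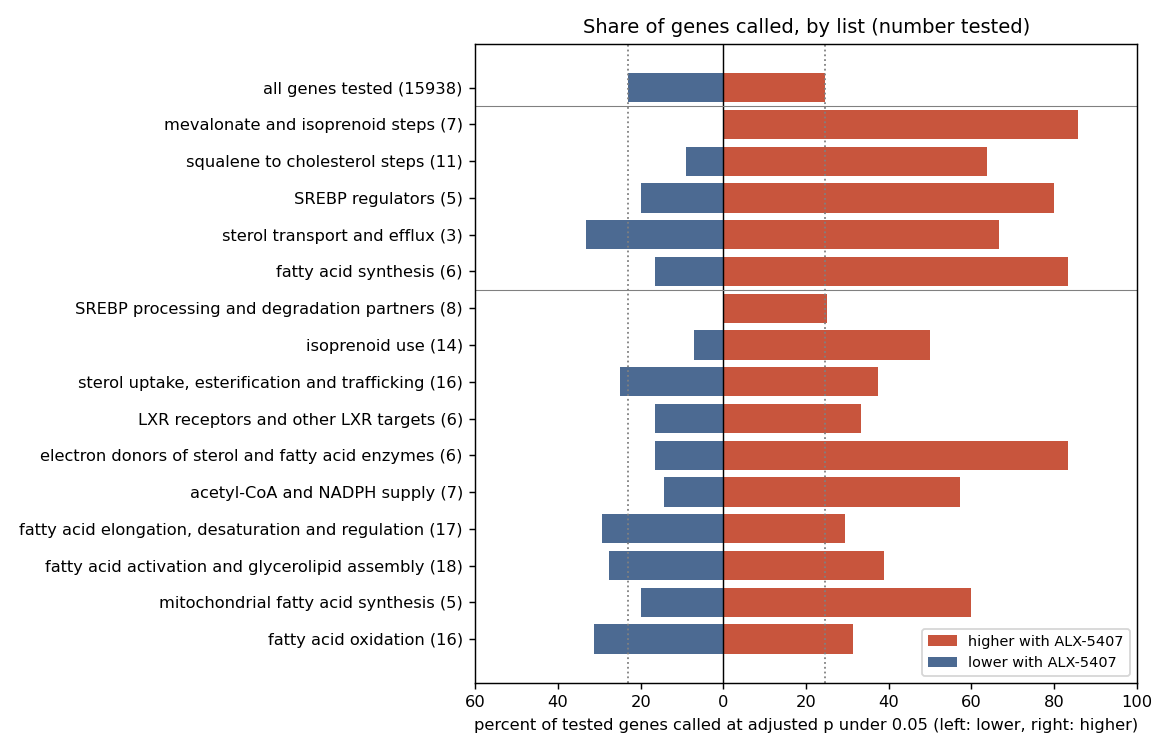
Percent of tested genes called lower (left of 0) and higher (right of 0) at an adjusted p under 0.05, for the 5 groups of the 32 genes, the 10 other lipid lists and all genes tested, with the number tested in brackets and dotted lines at the shares of all genes. All genes tested stand at 24.5% higher and 23.2% lower.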

How the data were processed

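RNA-seq was run on 6 cultures, and the grouping was taken from the labels. The values deposited by the authors are raw counts of reads for 54532 genes in each library, not normalized or pooled, with gene names, GRCm38 (mm10) coordinates and gene lengths. The submitters' processing notes name fastp, HISAT2 2.0.5 and featureCounts 1.5.0-p3. The annotation release, the strand setting and the treatment of reads that map to several places are not given in the sources used here, which bears on genes with close copies. The labels describe selection of RNA on poly-T beads, whereas the study's methods describe removal of ribosomal RNA. The comparison with Th0 cells was not analysed here.

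Library totals were 33432304, 32518060 and 30801753 counts in Th1 cultures and 34735568, 36727788 and 34142475 counts in ALX-5407 cultures, and 30 of the 32 genes had a mean of 500 counts or more. The main test used edgeR 4.0.16 (R 4.3.3) after filterByExpr (minimum count 10, minimum total 15), which kept 15938 genes, with TMM normalization and the two-sided quasi-likelihood F test, Benjamini-Hochberg adjustment and a threshold of 0.05. Unless another test is named, adjusted p-values come from this fit. Standard errors are the log2 fold change over the square root of F. The 95% intervals are approximate, at 1.96 standard errors on either side of the log2 fold change. They are narrower than the test implies with so few cultures, so an interval can exclude 0 where the unadjusted test does not pass. CPM values use TMM-scaled library sizes. The procedure was tested on simulated counts. Copies were found by BLAST (at least 95% identity over 100 bases) and overlaps from GENCODE M21, in which 28 of the 32 genes have the coordinates of the count table. Promoters came from RefSeq. The 7 genes without one in that table are Sqle, Fdps, Fdft1, Scd1, Scd2, Stard4 and Abcg1.

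The 32 genes, the other lipid lists and the markers were chosen with earlier results of these data known. All 32 genes are accounted for. Values by culture are given for up to 4 genes of each group with the smallest p-values, for genes that go against their group, and where a call was close. From other lists, up to 3 genes with the smallest p-values were named, at an adjusted p under 0.05 and a mean of at least 50 counts. Some results of these lists are not reported here. Alternatives were other scalings, DESeq2 1.42.0, limma-voom (limma 3.58.1), other filters, protein-coding genes alone, a replicate block and each culture left out in turn. Figures were drawn with matplotlib 3.10.9.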

Additional observations from a re-analysis of the deposited data

How the results depend on the processing

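All 32 genes kept their direction in all 14 alternatives, and 23 were called at an adjusted p under 0.05 in each of them. Calls changed in at least 1 alternative for Ebp, Fdps, Hsd17b7, Insig1, Msmo1, Sc5d and Tm7sf2, and the remaining Pmvk and Nsdhl were called in none. Across the alternatives, 3319 to 4071 of all genes were called higher and 3220 to 4158 lower. The number of the 32 called higher ranged from 20 to 25 and the number called lower from 4 to 5. With the log2 fold change threshold added, the number lower was 0 with no filter on low counts, and it ranged from 0 to 1 with each culture left out in turn, being 0 without Th1 replicate 3 or ALX-5407 replicate 2, where Abca1 no longer reached the threshold. Over all genes, 603 were lower at that threshold with protein-coding genes only, in which fewer genes were tested, against 1064. The median of the fatty acid genes was 0.53 with upper-quartile scaling and ranged from 0.52 to 0.63 with each culture left out. The median of the squalene to cholesterol genes ranged from 0.21 to 0.38, with 0.21 without ALX-5407 replicate 3. The cause of these shifts was not tested. Upper-quartile scaling moved the median of all genes by -0.053 on the log2 scale. Same-numbered cultures of the groups deviated together little (correlations of -0.0084, 0.0036 and 0.063), so the numbers were not taken as a pairing. With the replicate block, 25 of the 32 were higher and 5 lower, since Msmo1 and Ebp passed the test, and 4071 of all genes were higher and 3833 lower. Fdps had the lowest mean count of the 32 genes, 103 per library, and that count is uncertain because of its annotated copies.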
